A study of Mus musculus with 6 samples.

Results

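The 10 surface molecules through which dendritic cells stimulate or restrain T cells were followed here in RNA of freshly isolated mouse splenic dendritic cells. They were chosen by gene symbol, with earlier results of these data known. All 10 were among the 23420 genes counted: the B7 family ligands Cd80, Cd86, Icosl, Cd274, Pdcd1lg2 and Cd276, the receptor Cd40, and the TNF superfamily ligands Cd70, Tnfsf4 and Tnfsf9. The study compared 3 libraries from mice labelled TBK1-DKO with 3 from mice labelled wild type (WT), all of strain C57BL/6. The age was 8 weeks in the protocol and 10 weeks in the sample characteristics. The labels do not spell out DKO or name the alleles, a promoter, a sorting scheme, a sex or the animals behind each library. P-values here therefore reflect library-to-library spread alone, part or all of which may be technical.

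T cells need a signal beside the antigen receptor, and much of it comes from the B7 and TNF families. CD80 and CD86 engage the activating receptor CD28 and its inhibitory relative CTLA4, ICOSL engages ICOS, and the products of Cd274 (PD-L1) and Pdcd1lg2 (PD-L2) engage the inhibitory receptor PD1. CD40 receives CD40 ligand from helper T cells and signals in the dendritic cell itself through TRAF adaptors and NF-kB, while CD70, OX40L (Tnfsf4) and the ligand of CD137 (Tnfsf9) bind TNF receptors that sustain T cell responses. Resting dendritic cells carry little of most of these molecules and raise them on maturation. TBK1 is a kinase of innate sensing pathways that also meets the NF-kB machinery.

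Gene reads numbered 45018389 to 47349648 per TBK1-DKO library and 31077585 to 36145508 per WT library, a ratio of the means of 1.37 without overlap. Levels are given in CPM, the reads of a gene scaled to library size, as mean ± SD over 3 libraries. Log2 fold changes set TBK1-DKO over WT and come from edgeR's quasi-likelihood test. A gene was called when its p, adjusted over all genes tested by Benjamini-Hochberg, was under 0.05. Tbk1 stood at 82.3 ± 2.69 CPM in TBK1-DKO and 85.0 ± 5.08 in WT, with overlapping groups, and whole-gene counts do not check an allele that removes part of the gene. Of 7 genes that mark dendritic cells in general, among them Itgax, Flt3 and H2-Ab1, none was at 0 in all libraries. Their summed level was 11639 to 13422 CPM in TBK1-DKO and 12058 to 13462 CPM in WT. Most of it came from Cd74 (6373.5 CPM in TBK1-DKO and 6618 in WT), H2-Aa (3128 and 3333) and H2-Ab1 (2222 and 2357). These genes of MHC class II presentation are not confined to dendritic cells, so the sum does not measure dendritic cell content. Of the 7 markers, Zbtb46 rose and Itgax fell, calls that were each lost when some single libraries were left out. An earlier analysis of these data found TBK1-DKO 2 and WT 1 apart from the other libraries of their groups, so TBK1-DKO 1 and 3 were also compared with WT 2 and 3. Leaving out the libraries that lay apart lowers the spread within groups, so adjusted p-values there run smaller. That comparison called 47.7% of all genes, against 23.6% with all libraries. That comparison is given beside a member where it changes the call, and beside a list where it moves the count by over 1.5 times. For the 7 general dendritic cell markers it gave 1 rise and 4 falls.

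In the libraries labelled TBK1-DKO, Cd86 was lower, and Icosl, Cd40 and Tnfsf9 were higher, than in WT. The other 6 genes were not called, and 1 of them, Cd70, had too few reads to be tested. Of the 9 tested, 4 were thus called, where 23.6% of all 14388 tested genes were. By direction, 3 rose, against 13.7% of all tested genes, and 1 fell, against 9.9%. The groups did not overlap in 6 of the 9, against 41.1% of all tested genes. The changes were modest: the median size over the 9 genes was 0.26 on the log2 scale, against 0.15 over all tested genes and 0.47 over all called genes. After thinning every library to the depth of the shallowest, the same 4 genes were called. Fewer cells of a type and less RNA per cell cannot be told apart in these bulk samples.

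**Figure D1:**
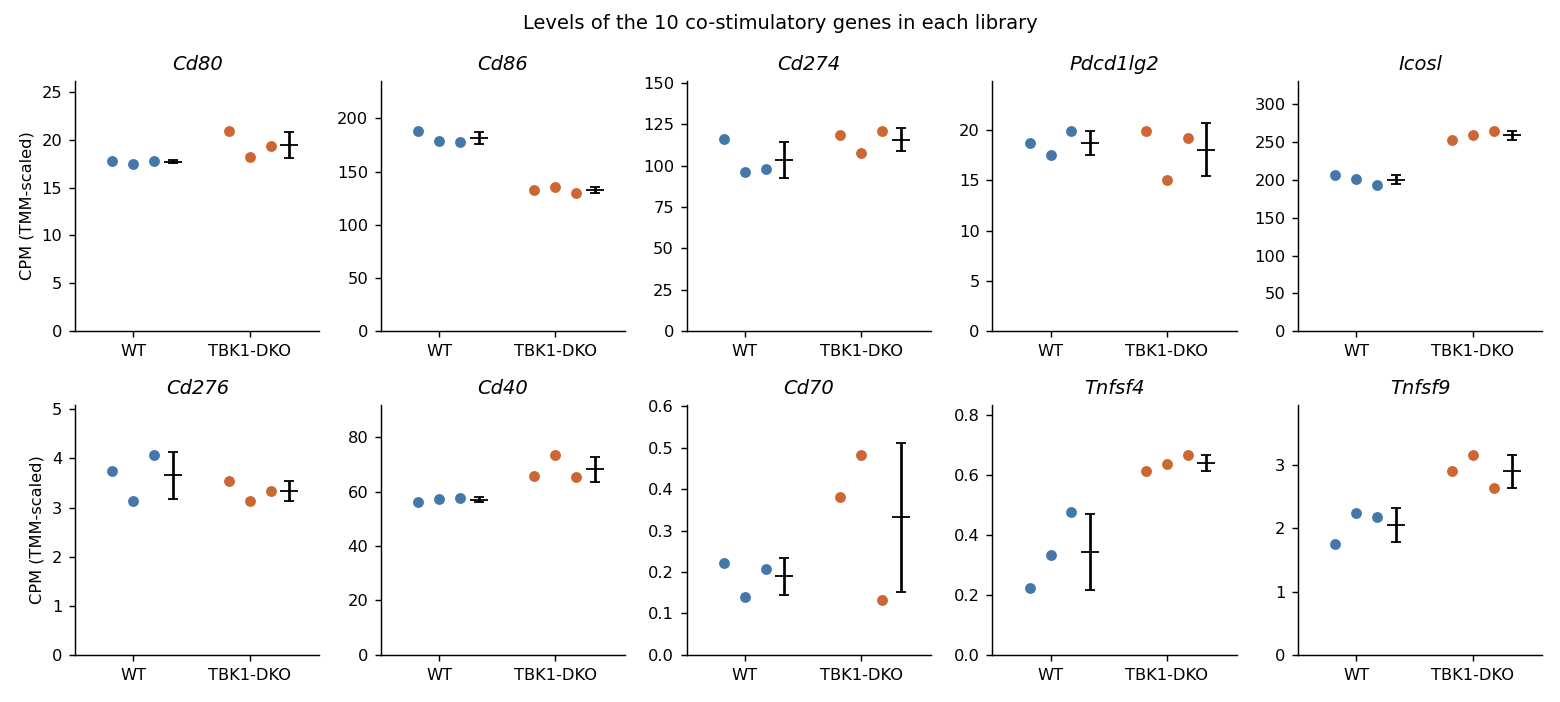
CPM (y axis, linear from 0, 1 scale per panel) of the 10 genes in each library; points are the WT (blue) and TBK1-DKO (orange) libraries 1 to 3 from left to right, and black bars are the mean ± SD of each group. The Cd86 libraries labelled TBK1-DKO all sit below WT, the Cd80, Icosl, Cd40, Tnfsf4 and Tnfsf9 libraries all sit above WT, and the Cd274, Pdcd1lg2, Cd276 and Cd70 groups overlap.

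Cd86 fell, whereas Cd80, which encodes a ligand of the same receptors, was not called. For Cd86 (chromosome 16, 36603869 to 36666081, minus strand), TBK1-DKO 1, 2 and 3 gave 133, 136 and 130.2 CPM, while WT 1, 2 and 3 gave 188, 179 and 178 CPM. Every TBK1-DKO library was below every WT library. The means were 133 ± 2.70 and 182 ± 5.66 CPM, a log2 fold change of -0.45 (adjusted p = 2.1e-04, SE 0.05, with a 95% confidence interval from -0.57 to -0.33), or 0.732 of the WT level. For Cd80 (chromosome 16, 38455561 to 38496335, plus strand), the TBK1-DKO libraries gave 20.9, 18.2 and 19.3 CPM and the WT libraries 17.8, 17.5 and 17.8 CPM. The TBK1-DKO libraries were slightly higher without overlap, and TBK1-DKO 1 was the highest. The log2 fold change of 0.14 (SE 0.07, with a confidence interval from -0.02 to 0.30) was not called (adjusted p = 0.21). In TBK1-DKO 1 and 3 against WT 2 and 3 it was 0.18 with adjusted p = 0.020, in a comparison that called 47.7% of all genes tested there.

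The ratio of Cd86 to Cd80 reads within a library does not depend on library scaling. It was 6.35, 7.45 and 6.74 in TBK1-DKO and 10.6, 10.2 and 9.99 in WT, so that the mean ratio was 0.666 of that in WT and the groups did not overlap. Cd86 had more reads than Cd80 in every library, by a smaller margin in TBK1-DKO. Relative to Itgax, the CD11c gene, Cd86 was 0.388 ± 0.017 in TBK1-DKO and 0.461 ± 0.006 in WT, again without overlap. Itgax itself was called lower (log2 fold change -0.20, adjusted p = 0.030), a call lost without TBK1-DKO 1 or 3 or WT 1 or 2 (adjusted p = 0.067 to 0.095). Relative to Csf1r, the receptor gene of monocytes and macrophages, Cd86 was 0.117, 0.120 and 0.118 in TBK1-DKO and 0.122, 0.108 and 0.106 in WT, and these groups overlapped. Csf1r fell by 0.53 on the log2 scale.

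Icosl (chromosome 10, 78069302 to 78083913, plus strand) rose. It measured 253, 259 and 264 CPM in the TBK1-DKO libraries, compared with 207, 201 and 194 CPM in the WT libraries, with a clear gap between the groups. The means were 259 ± 5.66 and 200.4 ± 6.51 CPM, a log2 fold change of 0.37 (adjusted p = 8.1e-04, SE 0.05, with a confidence interval from 0.25 to 0.49) or 1.29 times the WT level. With Cd86 lower and Icosl higher, the most abundant of the 10 transcripts per length differed between the groups. Scaled per kilobase of annotated exon, Cd86 led in WT with 49.6 ± 1.55 CPM per kilobase against 43.4 ± 1.41 for Icosl. In TBK1-DKO, Icosl led with 56.0 ± 1.22 CPM per kilobase against 36.3 ± 0.738 for Cd86. The ranges of these genes did not overlap within either group. The read ratio of Icosl to Cd86 was 1.91, 1.91 and 2.03 in TBK1-DKO and 1.10, 1.12 and 1.09 in WT. Icosl thus had more reads than Cd86 in every library. The lead of Cd86 in WT rests on the exon lengths used, 4620 bases for Icosl and 3661 for Cd86. The annotation behind the counts was not given.

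Neither ligand of PD1 was called. For Cd274 (chromosome 19, 29367455 to 29388095, plus strand), the TBK1-DKO libraries gave 119, 108 and 121 CPM and the WT libraries 116, 96.1 and 98.0 CPM. WT 1 lay within the TBK1-DKO range, while WT 2 and 3 lay below it. The log2 fold change was 0.16 (adjusted p = 0.19, SE 0.08, with a confidence interval from -0.02 to 0.34). Without WT 1 it was 0.25 with adjusted p = 0.029, and in TBK1-DKO 1 and 3 against WT 2 and 3 it was 0.29 with adjusted p = 5.6e-11. The latter comparison called 47.7% of all genes, and leaving out TBK1-DKO 2 and WT 1 lowers the spread within groups. With transcript length and GC trends removed, the fold change stayed at 0.16 and adjusted p = 0.031, where 35.0% of all genes were called. Whether Cd274 passes the threshold thus depended on WT 1 and on the model.

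Pdcd1lg2 lies 22.8 kb from Cd274 (chromosome 19, 29410919 to 29471161, plus strand) and encodes the scarcer PD1 ligand. It measured 19.9, 14.99 and 19.2 CPM in the TBK1-DKO libraries, compared with 18.7, 17.5 and 19.9 CPM in the WT libraries. The groups overlapped, with TBK1-DKO 2 below all other libraries. The log2 fold change was -0.05 (adjusted p = 0.78, SE 0.11, with a confidence interval from -0.29 to 0.19), and without TBK1-DKO 2 it was 0.043. The antisense gene A930007I19Rik overlaps Pdcd1lg2 and held 10 to 38 reads per library. The ratio of Cd274 to Pdcd1lg2 reads was 5.96 to 7.17 in TBK1-DKO and 4.94 to 6.21 in WT, with overlap.

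Cd276 (chromosome 9, 58524298 to 58555437, minus strand) encodes B7-H3, a B7 relative whose T cell receptor is not settled. It was low: the TBK1-DKO libraries gave 3.53, 3.14 and 3.33 CPM and the WT libraries 3.75, 3.14 and 4.07 CPM. The groups overlapped, and the log2 fold change of -0.13 (SE 0.13, with a confidence interval from -0.41 to 0.16) was not called (adjusted p = 0.52).

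Upstream sequence is shown for Icosl, the called gene with an entry in the RefSeq promoter table, and for Pdcd1lg2, which was not called and holds the NF-kB match. The stretch runs from 250 to 67 bases before the RefSeq start (build GRCm38.p6), which is outside the annotated exons of both genes. It lies on the plus strand at chr10:78069118-78069301 for Icosl and at chr19:29410669-29410852 for Pdcd1lg2. Capitals mark matches on either strand to the NF-kB consensus or to the ETS core GAGGAA.
Icosl: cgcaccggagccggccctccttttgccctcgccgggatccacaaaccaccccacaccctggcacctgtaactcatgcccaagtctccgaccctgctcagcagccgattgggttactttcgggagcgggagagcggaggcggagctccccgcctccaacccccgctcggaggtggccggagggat
Pdcd1lg2: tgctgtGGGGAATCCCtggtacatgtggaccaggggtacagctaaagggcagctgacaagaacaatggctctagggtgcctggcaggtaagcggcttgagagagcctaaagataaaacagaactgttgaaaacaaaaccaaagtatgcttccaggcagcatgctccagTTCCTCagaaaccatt
The Icosl stretch held neither motif, nor the ISRE core, the GAS motif TTCNNNGAA or the GC box GGGCGG. Among 5 members with an entry (Cd80, Cd274, Cd276, Icosl and Pdcd1lg2), the NF-kB consensus occurred in Pdcd1lg2 alone, and it occurs in 2.87% of 32851 promoters over the same 184 bases. That match reads GGGGAATCCC on the plus strand, meets the consensus on both strands and starts 244 bases before the RefSeq start. The ETS core occurred in Cd276 and Pdcd1lg2 and in 17.5% of promoters, and the GC box in Cd276 and in 21.7%. The ISRE core and the GAS motif, in 2.26% and 5.34% of promoters, occurred in none of the 5. A match is a description of the letters and shows no binding.

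Cd40 (chromosome 2, 165055627 to 165072948, plus strand), the receptor through which helper T cells license dendritic cells, rose. It measured 65.8, 73.5 and 65.2 CPM in the TBK1-DKO libraries, compared with 56.0, 57.25 and 57.7 CPM in the WT libraries. All TBK1-DKO libraries were above WT, and TBK1-DKO 2 was the highest. The log2 fold change was 0.26 (adjusted p = 0.013, SE 0.06, with a confidence interval from 0.12 to 0.40), or 1.196 times the WT level. The call was lost without WT 2 (adjusted p = 0.080) or WT 3 (adjusted p = 0.062), with fold changes of 0.25 in either case. The ratio of Cd40 to Cd86 reads was 0.496, 0.542 and 0.501 in TBK1-DKO and 0.298, 0.320 and 0.325 in WT, 1.63 times as high on average. Relative to Itgax, Cd40 was 0.199 ± 0.019 in TBK1-DKO and 0.145 ± 0.007 in WT.

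**Figure D2:**
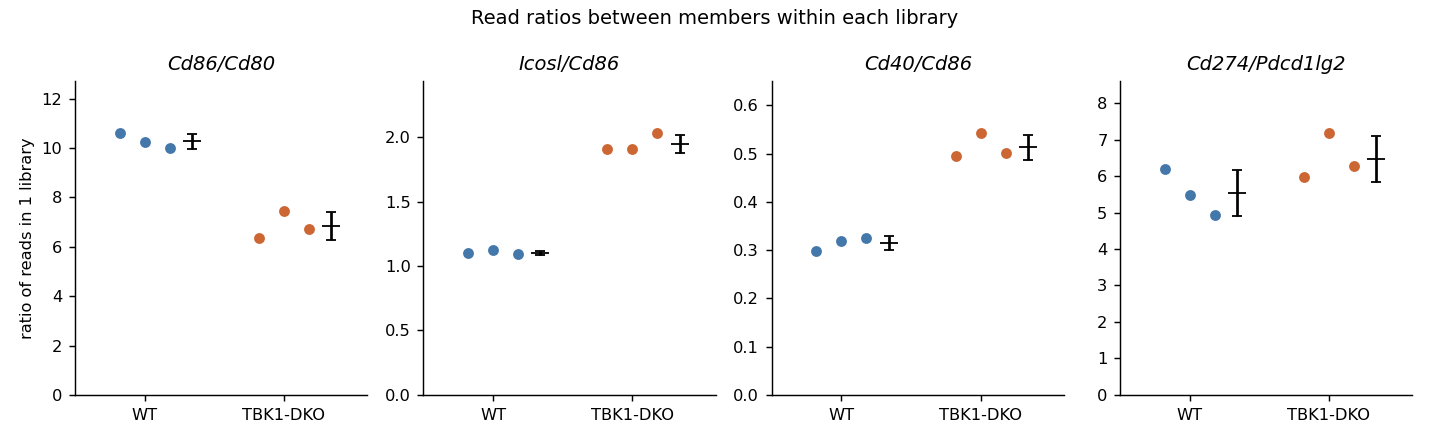
Ratio of reads of 2 genes within each library (y axis, linear from 0) for Cd86 to Cd80, Icosl to Cd86, Cd40 to Cd86 and Cd274 to Pdcd1lg2; points are WT (blue) and TBK1-DKO (orange) libraries and black bars the mean ± SD. The groups are apart in the first 3 panels, with the Icosl to Cd86 ratio near 1.10 in WT and 1.95 in TBK1-DKO, and overlap in the Cd274 to Pdcd1lg2 panel.

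The TNF superfamily ligands were scarce, as single libraries held 5 to 144 reads of each. Tnfsf9 (chromosome 17, 57105325 to 57107757, plus strand), the ligand of CD137, had 137, 144 and 119 reads in TBK1-DKO and 55, 81 and 73 in WT. These are 2.90, 3.16 and 2.64 CPM against 1.75, 2.25 and 2.17 CPM, without overlap. The log2 fold change was 0.49 (adjusted p = 0.032, SE 0.14, with a confidence interval from 0.17 to 0.81), the largest among the called rises of the 9 tested genes. The call depended on single libraries. It was kept without TBK1-DKO 3 (adjusted p = 0.042) and lost when any other library was left out, with adjusted p = 0.081 without TBK1-DKO 1, 0.075 without TBK1-DKO 2, 0.095 without WT 1, 0.064 without WT 2 and 0.077 without WT 3. DESeq2, which called 23.0% of all genes, gave adjusted p = 0.058, and TBK1-DKO 1 and 3 against WT 2 and 3 gave 0.31 with adjusted p = 0.13. The antisense gene Gm11110 overlaps Tnfsf9 and held 73 to 95 reads per library, with a log2 fold change of -0.38 (adjusted p = 0.073). Reads of these genes cannot be told apart where the strand was not kept.

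Tnfsf4 (chromosome 1, 161395409 to 161418410, plus strand), which encodes OX40L, had 29, 29 and 30 reads in TBK1-DKO and 7, 12 and 16 in WT. At 0.614, 0.637 and 0.666 CPM against 0.223, 0.333 and 0.476, the groups did not overlap. Its log2 fold change was 0.88 (SE 0.29, with a confidence interval from 0.23 to 1.52), the largest of the 9, and it just missed the threshold (unadjusted p = 0.013, adjusted p = 0.053). It was called by limma-voom (adjusted p = 0.047, with 23.3% of all genes called), with the replicate number as a block (adjusted p = 0.045, with 28.4% called), with length and GC trends removed (adjusted p = 0.036) and without WT 3 (1.16, adjusted p = 0.041). Leaving out any other library gave adjusted p = 0.075 to 0.16. At 7 to 30 reads per library the size of this difference is poorly determined.

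Cd70 (chromosome 17, 57145997 to 57149777, minus strand) lies 38.2 kb from Tnfsf9 and encodes the ligand of CD27. Its reads numbered 18, 22 and 6 in TBK1-DKO and 7, 5 and 7 in WT. Scaled to library size, TBK1-DKO 1 and 2 were above all WT libraries and TBK1-DKO 3 was below them. Over each group, 46 reads against 19 correspond to a ratio of 1.77 (exact Clopper-Pearson 95% interval 1.02 to 3.20, which covers counting error of reads only). The gene did not pass the filter on low counts. With no filter, its log2 fold change of 0.80 was not called (adjusted p = 0.32).

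**Figure D3:**
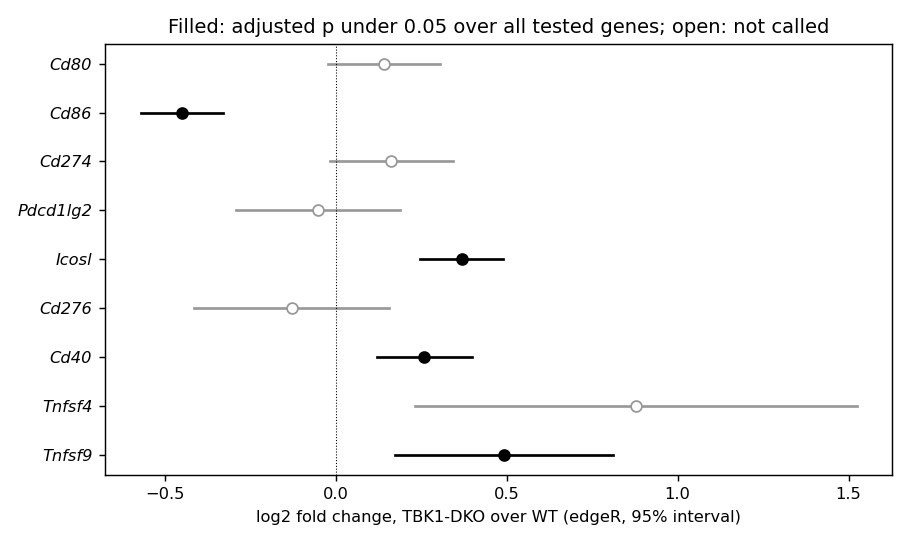
Log2 fold change of TBK1-DKO over WT (x axis) with its 95% interval for the 9 tested genes (y axis), from edgeR; filled points passed adjusted p under 0.05 over all tested genes. Cd86 at -0.45 is the only called gene left of 0, and Tnfsf4 at 0.88 has the widest interval.

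Per kilobase of exon, the 10 genes kept the same order in both groups except for the exchange at the top. Below Cd86 and Icosl came Cd274 (31.9 CPM per kilobase in TBK1-DKO and 28.5 in WT), Cd40 (20.0 and 16.7), Pdcd1lg2 (9.20 and 9.53) and Cd80 (5.26 and 4.77). Then came Tnfsf9 (2.25 and 1.59), Cd276 (0.912 and 0.999), Cd70 (0.395 and 0.226) and Tnfsf4 (0.347 and 0.187). Neighbours in this order did not overlap over the 3 libraries of a group, except Cd70 and Tnfsf4 in both groups. On this scale Icosl in TBK1-DKO exceeded 94.4% of all tested genes, and Tnfsf4 in WT exceeded 7.78% of them. Summed over all 10 genes, the level was 616 to 626 CPM in TBK1-DKO and 572 to 609 CPM in WT.

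The genes whose levels over the 6 libraries followed Cd86 most closely were Gpr171, Pid1 and Pilra, an inhibitory receptor gene of myeloid cells. Likeness was the root mean square distance of log2 deviations from each gene's own mean, and it was 0.013, 0.026 and 0.032 for these 3 genes against a median of 0.249 over 10706 genes at 5 CPM or more. Gpr171 measured 25.1, 26.04 and 24.97 CPM in the TBK1-DKO libraries, compared with 35.5, 33.96 and 34.3 CPM in the WT libraries. Tnfsf9 was followed most closely by F10, the coagulation factor X gene (distance 0.040), C230052I12Rik (0.043) and Hexdc (0.043), against a median of 0.290. These genes were themselves called in the direction of the member they followed, which follows from choosing them by likeness over the same 6 libraries.

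Called genes beside the members moved in both directions. Next to Cd86 on chromosome 16, Ildr1, 27.9 kb away, fell by 0.59 on the log2 scale, whereas Slc15a2, a peptide transporter gene 84.1 kb away, rose by 1.54 (adjusted p = 6.4e-07). Next to Icosl on chromosome 10, Aire, the autoimmune regulator gene 25.7 kb away, rose from 4.81 to 7.60 CPM (log2 fold change 0.66, adjusted p = 6.5e-04). Dnmt3l, 5.68 kb from Icosl, had under 1 CPM and was not called (0.94, adjusted p = 0.058). Beside Cd274, Plgrkt at 0.065 kb was not called (-0.14), while Insl6 at 42.1 kb rose by 0.46 (adjusted p = 0.018), a call lost without TBK1-DKO 1, WT 2 or WT 3 (adjusted p = 0.053 to 0.074). On the side of Cd276, 2410076I21Rik, 97.4 kb away, rose by 0.45 (adjusted p = 0.047). Fasl, 362 kb from Tnfsf4, fell by 0.39, while the nearer Tnfsf18, at 76.2 kb, was not called. The neighbours examined of Cd80, Pdcd1lg2, Cd40 and Tnfsf9 were not called. Of all tested genes, 23.6% were called.

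The T cell receptors that bind these molecules were detected too. Of Cd28, Ctla4, Icos, Pdcd1, Cd40lg, Cd27, Tnfrsf4 and Tnfrsf9, only Tnfrsf4, the OX40 gene, was called by edgeR, against 23.6% of all tested genes. It stood at 15.7 ± 0.877 CPM in TBK1-DKO and 12.9 ± 0.356 in WT, with a log2 fold change of 0.28 (adjusted p = 0.023). The call was lost without any library but TBK1-DKO 1 (adjusted p = 0.052 to 0.089), and 6 other settings, RLE and upper-quartile scaling among them, called 1 rise and 1 fall in this list. Icos stood at 29.0 ± 0.396 against 27.3 ± 0.833 CPM and Cd28 at 26.4 ± 2.80 against 28.9 ± 1.66 CPM.

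Other ligands of the TNF superfamily changed in both directions. Of 15 tested, Tnf and Tnfsf13b, the BAFF gene that supports B cells, rose, Tnfsf10 (TRAIL), Fasl and Tnfsf12 (TWEAK) fell, and 10 were not called. Over all tested genes, 13.7% rose and 9.9% fell. Tnf stood at 20.6 ± 1.54 CPM in TBK1-DKO and 11.6 ± 1.24 in WT, and Tnfsf13b at 5.69 ± 0.427 against 3.18 ± 0.271 CPM (log2 fold change 0.84, adjusted p = 4.7e-04). Tnfsf10 fell by 0.47 (adjusted p = 0.012). The fall of Fasl (-0.39) was lost without TBK1-DKO 3 (adjusted p = 0.060) or WT 2 (adjusted p = 0.053). The fall of Tnfsf12 (-0.35) was lost without any library but TBK1-DKO 2 (adjusted p = 0.057 to 0.12). Without TBK1-DKO 3, and likewise without WT 2, the list held 2 rises and 1 fall. TBK1-DKO 1 and 3 against WT 2 and 3 gave 3 rises and 5 falls, with Tnfsf10 at -0.29, and called 47.7% of all genes. The median log2 fold change of the 15 was -0.0043, against 0.0015 over all genes tested.

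Of 13 other tested surface partners of T cells, 4 rose, 2 fell and 7 were not called, where 13.7% of all tested genes rose and 9.9% fell. Cd83, a maturation marker of dendritic cells, rose from 156 ± 4.29 to 215 ± 8.97 CPM (log2 fold change 0.47, adjusted p = 2.2e-04), and the semaphorin gene Sema7a by 0.30. Sema4a rose by 0.25, a call lost without WT 2 (adjusted p = 0.090), and the adhesion ligand gene Icam1 by 0.21, a call lost without TBK1-DKO 1 or any WT library (adjusted p = 0.064 to 0.10). Cd200, the ligand of an inhibitory myeloid receptor, fell from 35.9 ± 0.105 to 29.7 ± 0.287 CPM. Cd48 fell by 0.33, a call lost without TBK1-DKO 3 (adjusted p = 0.053). In TBK1-DKO 1 and 3 against WT 2 and 3, 6 of the 13 rose and 4 fell, with Icam1 at 0.13, and 47.7% of all genes were called. The VISTA gene, counted as 4632428N05Rik, stood at 285 ± 6.41 against 293 ± 13.2 CPM and was not called.

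Of 22 genes of CD40 and NF-kB signalling, 6 rose and 16 were not called, where 13.7% of all tested genes rose. Traf1, a TRAF adaptor gene, rose from 139.6 ± 2.77 to 205 ± 14.1 CPM (log2 fold change 0.56, adjusted p = 1.4e-04). Relb, the NF-kB subunit of the alternative pathway, rose from 144 ± 12.4 to 215 ± 15.4 CPM (0.58, adjusted p = 4.3e-04). Those rises held whichever library was left out. Bcl3 (0.32), Nfkbie (0.24), Nfkb1 (0.19) and Map3k14, the kinase NIK (0.19), also rose, but without WT 2 only Traf1 and Relb were called and without WT 3 the list held 3 rises. TBK1-DKO 1 and 3 against WT 2 and 3 gave 9 rises and 2 falls, with Bcl3 at 0.17 and Nfkbie at 0.15. In that comparison 47.7% of all genes were called. Nfkb2 (0.10), Rela (0.08), Traf2 (0.01) and Traf3 (0.00) were not called. The ratio of Cd40 to Relb reads was 0.317 ± 0.007 in TBK1-DKO and 0.399 ± 0.029 in WT, without overlap.

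Of 14 genes of the interferon and STAT signalling that is known to control Cd274, 4 rose, 2 fell and 8 were not called. Of all tested genes, 13.7% rose and 9.9% fell. Jak2, a kinase of the interferon gamma receptor, rose from 215 ± 10.6 to 353 ± 20.6 CPM (log2 fold change 0.72, adjusted p = 4.1e-05), whichever library was left out. Socs1, a brake on these kinases, rose by 0.71, a call lost without WT 2 (adjusted p = 0.062). Irf1 (0.06, adjusted p = 0.45) was not called. The calls of Ifnar1 and Irf9 (both up) and of Ifngr1 and Jak1 (both down) were each lost when some single libraries were left out. The list held 3 rises without TBK1-DKO 1, 2 rises without TBK1-DKO 3, 1 rise and 1 fall without WT 2, and 2 rises and 1 fall without WT 3. In TBK1-DKO 1 and 3 against WT 2 and 3 it held 9 rises and 3 falls, where 47.7% of all genes were called.

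Among 6 genes that act on the proteins after synthesis, March8 rose and Cmtm4 fell, where 13.7% of all tested genes rose and 9.9% fell. March8, whose product is a ubiquitin ligase that removes CD86 from the surface, stood at 117 ± 5.26 CPM in TBK1-DKO and 80.4 ± 1.98 in WT (log2 fold change 0.55, adjusted p = 8.9e-05). Its relative March1, which targets CD86 and MHC class II in dendritic cells, stood at 145 ± 9.15 against 162 ± 7.94 CPM and was not called (-0.16, adjusted p = 0.11). Cmtm4, which stabilises PD-L1 like its relative Cmtm6, stood at 18.9 ± 2.28 against 26.7 ± 1.07 CPM (-0.50, adjusted p = 0.0030). Cmtm6, at 167 ± 0.858 against 179 ± 1.68 CPM, was not called (-0.10), nor were the protease genes Adam10 (0.16) and Adam17 (0.09). Without TBK1-DKO 2 the list held 2 rises and 2 falls. With length and GC trends removed, where 35.0% of all genes were called, it held 2 rises and 3 falls. In TBK1-DKO 1 and 3 against WT 2 and 3, where 47.7% were called, it held 3 rises and 3 falls. RNA levels do not measure the surface proteins.

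**Figure D4:**
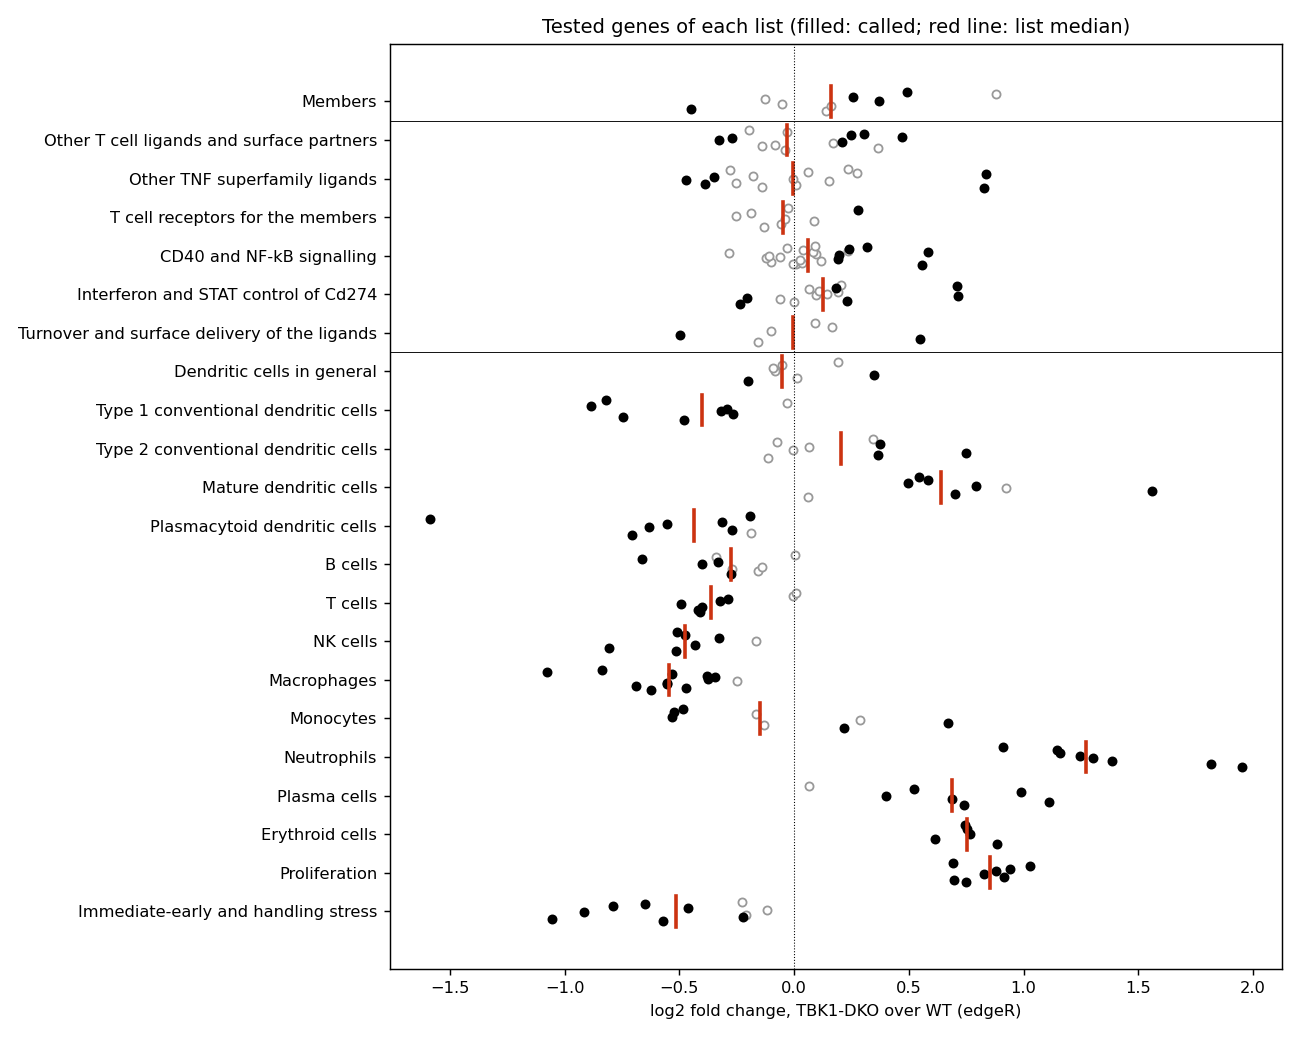
Log2 fold change of TBK1-DKO over WT (x axis) of each tested gene of the 10 members, 6 pathway lists and 15 marker lists (y axis); filled points were called by edgeR, open points were not, and red lines are list medians. The members spread around 0 with a median of 0.16, between lists that lie wholly left of 0, such as macrophages (median -0.54), and wholly right, such as neutrophils (1.27).

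Markers of other cells that carry these molecules differed between the groups too. For these and the following marker lists, the shares over all tested genes were 13.7% up and 9.9% down. Of 12 macrophage markers, 11 fell, and their summed level was 4888 to 5331 CPM in TBK1-DKO and 6973 to 7696 CPM in WT. Of 9 B cell markers, 4 fell, with sums of 3041 to 3153 CPM against 3608 to 3756 CPM. The B cell count was 7 without TBK1-DKO 2, and 8 both with length and GC trends removed and in TBK1-DKO 1 and 3 against WT 2 and 3. Of all genes, 35.0% were called with those trends removed and 47.7% in the latter comparison. Of 8 monocyte markers, 3 fell, Csf1r among them, and 2 rose, with sums of 2195 to 2228 CPM against 2797 to 2864 CPM. None of these markers was at 0 in all libraries, and macrophages, monocytes and B cells are all known to carry Cd86. Their part in the fall of Cd86 was not tested.

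Mature dendritic cell markers moved the other way, with 6 of 8 tested called higher: Ccl22, Cacnb3, Fscn1, Relb, Marcksl1 and Socs2. Their summed level was 1038 to 1143 CPM in TBK1-DKO and 665 to 775 CPM in WT, while Ccr7, at 140.3 against 135 CPM, was not called. Of 8 markers each, 7 of type 1 conventional dendritic cells and 7 of plasmacytoid dendritic cells fell, with sums of 1830.3 to 2082 CPM against 2243 to 2394 CPM and of 1114 to 1161 CPM against 1417 to 1443 CPM. Wdfy4, the type 1 marker that was not called, made up a large part of the type 1 sum (1112 CPM in TBK1-DKO and 1137 in WT). The plasmacytoid count was 4 without WT 2. Of 8 type 2 conventional dendritic cell markers, 3 rose (Esam, Itgam and Clec4a4) and 5 were not called, and their summed level was 1645 to 1680 CPM in TBK1-DKO and 1645 to 1683 CPM in WT. This list held 4 rises and 1 fall without TBK1-DKO 2. It held 3 rises and 3 falls with length and GC trends removed, where 35.0% of all genes were called. In TBK1-DKO 1 and 3 against WT 2 and 3, where 47.7% were called, it held 5 rises and 3 falls. The part of these subsets in the levels of Cd86, Icosl, Cd40 and Tnfsf9 was not tested.

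Markers of further cells also differed. All 8 neutrophil markers rose (sums of 5648 to 6517 CPM against 2328 to 2609 CPM), as did all 5 tested erythroid markers (2528 to 2624 CPM against 1389.6 to 1534 CPM), all 8 proliferation genes (1834.5 to 2203 CPM against 1108 to 1328 CPM) and 6 of 7 plasma cell markers (692 to 712 CPM against 520.0 to 548 CPM). Of 8 T cell markers 6 fell (303 to 331 CPM against 371 to 393 CPM), and of 7 NK cell markers 6 fell (213 to 232 CPM against 287 to 319 CPM). Of 10 immediate-early and heat shock genes, which respond to tissue handling, 7 fell, Hspa1a among them (sums of 1449 to 1522 CPM against 2053 to 2253 CPM). The part of all these cells and genes in the results above was not tested.

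**Figure D5:**
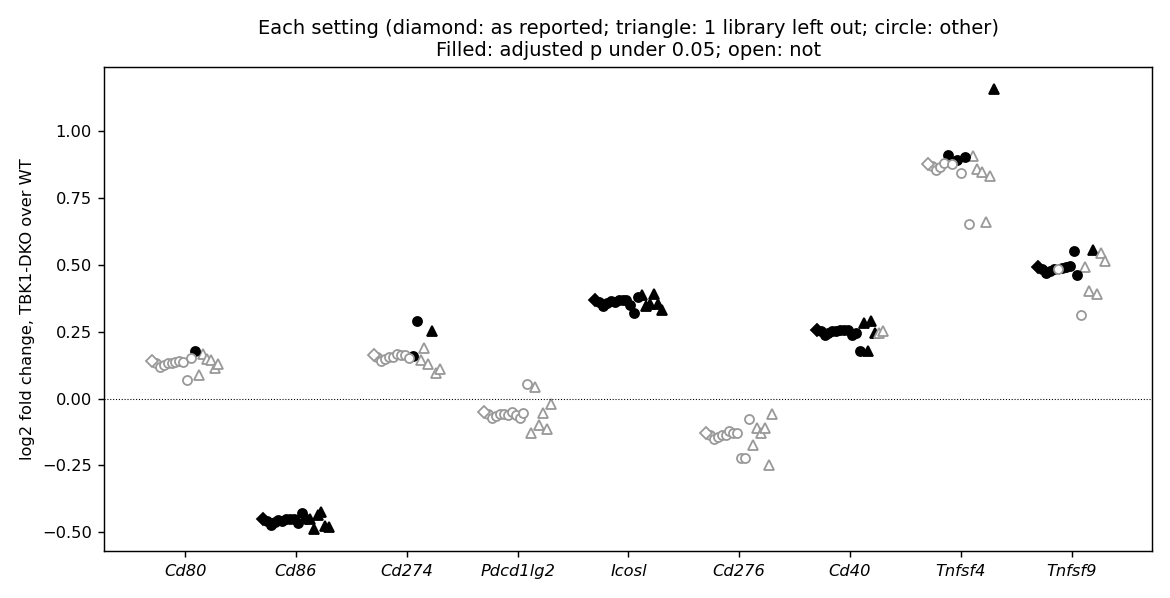
Log2 fold change of TBK1-DKO over WT (y axis) of the 9 tested genes (x axis) as reported (diamonds), with 1 library left out (triangles) and under the other settings (circles); filled symbols had adjusted p under 0.05. Cd86 and Icosl are filled throughout, Cd40 is open without WT 2 or WT 3, and Cd80, Cd274, Tnfsf4 and Tnfsf9 change sides of the threshold.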

How the data were processed

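RNA sequencing of splenic dendritic cells gave 6 deposited tables of whole-number read counts per gene symbol, neither scaled nor pooled by the authors, 1 per library. The submitters' processing notes name HTSeq, TopHat, TopHat2, DESeq2 and the build mm10. Strand setting, annotation and tool versions: not given in the sources used here. Trizol was used for the RNA, per the labels' protocols. Summary rows that name no gene (8.20% to 10.7% of records) were left out. HTSeq leaves out reads that fit several places or genes.

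Groups came from the titles. Genes were kept by edgeR's filterByExpr (minimum count 10), which left 14388 of 23420, with at least 99.98% of gene reads. Counts were scaled by TMM (factors 0.996 to 1.012) and tested with edgeR 4.0.16 (R 4.3.3, limma 3.58.1): quasi-likelihood F test, robust dispersions, no covariate, Benjamini-Hochberg adjustment over all tested genes. SE were derived from the F statistic. The test was also run on counts simulated with the means, library sizes and dispersions of these data. Exon lengths and positions came from GENCODE M21 (GRCm38, the mm10 assembly), which matched 21777 symbols directly and 1260 by synonym; promoters came from RefSeq (GRCm38.p6), which held 5 of the 10 members and not Cd86, Cd40, Cd70, Tnfsf4 or Tnfsf9. Coordinates are 1-based.

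Alternatives were upper-quartile or RLE factors, a stricter filter (minimum count 50, 1 CPM) or none, DESeq2 1.42.0, limma-voom, no robust option, a replicate block, thinning to the shallowest library, length and GC offsets (known for 99.1% of tested genes), TBK1-DKO 1 and 3 against WT 2 and 3, adjusted p under 0.01, and each library left out. The members and lists were chosen with earlier results of these data known. All members are named, with called genes of each pathway list (up to 6 by smallest p), counts and summed levels of each marker list, the 3 genes most like the called members with the largest rise and fall, and, added after the values were seen, ratios to Itgax, Csf1r and Relb, the neighbouring genes, and the single markers and uncalled pathway genes named.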

Additional observations from a re-analysis of the deposited data

How the results depend on the processing

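Cd86 was called down, with log2 fold changes of -0.49 to -0.43, and Icosl up, with 0.32 to 0.39, under all 17 alternatives to the reported fit. The number of members called, 4 as reported, ranged from 2 to 4 with 1 library left out and was 2 at adjusted p under 0.01, while DESeq2 called 3 and the length and GC offsets 6. Leaving out 1 library gave Cd40 0.18 to 0.29, Tnfsf9 0.39 to 0.55, Tnfsf4 0.66 to 1.16, Cd274 0.10 to 0.25, Cd80 0.09 to 0.17, Cd276 -0.25 to -0.06 and Pdcd1lg2 -0.13 to 0.043, so that the uncalled Pdcd1lg2 changed sign without TBK1-DKO 2.

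In TBK1-DKO 1 and 3 against WT 2 and 3, Cd80 (0.18) and Cd274 (0.29) were called, Tnfsf9 (0.31) was not, and the uncalled Pdcd1lg2 was 0.054; 6897 of all genes and 49 of the 6 pathway lists' genes were called there. With length and GC offsets Cd274 (0.16) and Tnfsf4 (0.90) were called, limma-voom called Tnfsf4 (0.91), and DESeq2 did not call Tnfsf9 (0.49). The cause was not tested. Of all genes, 3402 were called as reported, 2308 to 4352 with 1 library left out and 1996 at adjusted p under 0.01. Over the 6 pathway lists, 26 genes were called as reported, 13 to 32 with 1 library left out (13 without WT 2, 16 without TBK1-DKO 3, 17 without WT 3) and 11 at adjusted p under 0.01. Over the 15 marker lists, 91 were called and 76 to 110 under the alternatives.

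Same-numbered libraries did not pair throughout: deviations from group means correlated at 0.18, 0.15 and -0.06 for numbers 1, 2 and 3. TBK1-DKO 1 and 2 correlated best with the WT library of their own number, while TBK1-DKO 3 correlated best with WT 1 (0.12). With the replicate block 4086 genes and 5 members were called, among them Tnfsf4 (0.89, adjusted p = 0.045). Depth limits Cd70, Tnfsf4 and Tnfsf9, at 5 to 144 reads per library.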
